A study of Mus musculus with 2 samples.

Results

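Photoreceptor recovery is the set of reactions that returns a rod or cone to its dark state after light. It was followed here through 10 genes, Guca1a, Guca1b, Gucy2e, Gucy2f, Rcvrn, Grk1, Rgs9, Gnb5, Slc24a1 and Slc24a2. They were chosen by gene symbol, and each matched 1 of the 32227 genes in the files. Counts came from nuclei of whole mouse retina at postnatal day 21, profiled by single-nucleus RNA-seq in 1 Cre- library and 1 Tet tcKO library. Tet tcKO animals carried floxed Tet1, Tet2 and Tet3 and the Chx10-Cre-GFP transgene, which is active in retinal progenitor cells and whose activity can be mosaic; Cre+ animals had been in-crossed to lessen this. Cre- animals came from Cre- breeders and are labelled WT, and the labels and methods do not say whether they carried floxed alleles. Both groups were of strain C57 BL/6J, and retinas of several animals were pooled in 2 dissociations for each genotype. Nuclei cannot be assigned to a dissociation, so each genotype counted as 1 sample, no test between genotypes was possible, and no difference below was checked against replicates.

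In the light, cyclic GMP is broken down, cation channels close and calcium falls in the outer segment. Low calcium then drives recovery. The guanylate cyclase activating proteins, encoded by Guca1a and Guca1b, sense calcium and stimulate the membrane guanylate cyclases encoded by Gucy2e and Gucy2f, which make new cyclic GMP. Recoverin (Rcvrn) is a calcium sensor that restrains rhodopsin kinase (Grk1), the enzyme that phosphorylates light-activated opsin. RGS9 in complex with the G protein subunit Gβ5 (Gnb5) speeds the shut-off of transducin. Sodium/calcium-potassium exchangers remove calcium from the outer segment. Slc24a1 encodes the rod exchanger and Slc24a2 an exchanger described in cones, which many neurons also use.

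The Cre- library held 7357 nuclei and 11510585 UMIs (unique molecular identifiers, 1 per captured transcript), and the Tet tcKO library 6766 nuclei and 16590747 UMIs, with medians of 1107 and 1836.5 UMIs per nucleus. The libraries shared 1 cell barcode. Mitochondrial genes took 5.47% and 1.76% of UMIs. Levels are given as CPM, the UMIs of a gene scaled by all UMIs of the same nuclei, and log2 ratios set Tet tcKO against Cre-, with positive values where Tet tcKO was higher. Values in parentheses are exact 95% intervals that cover counting error only. Retinal markers were present in both libraries, and 0 of the 8 rod and 9 cone markers were at 0. Over all nuclei the rod markers summed to 8494 CPM (Cre-) and 3521 CPM (Tet tcKO), and the cone markers to 1269 and 4533 CPM. These sums moved with the results below, and their part in them was not tested. The targeted genes had log2 ratios from -0.05 (Tet3) to 0.41 (Tet2), but whole-gene counts do not check a deletion of exons.

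Of the 10 genes, Guca1b and Guca1a are neighbours on chromosome 17 that point towards each other, 1572 bases apart. Guca1b lies on chromosome 17 from 47696301 to 47703910 and Guca1a on chromosome 17 from 47705483 to 47711509 (GRCm39). Slc24a1 lies on chromosome 9 from 64830143 to 64858889, Slc24a2 on chromosome 4 from 86901361 to 87148813, Gucy2e on chromosome 11 from 69108943 to 69127870 and Gucy2f on chromosome X from 140863355 to 140980174. Rcvrn (chromosome 11 from 67586141 to 67594159) sits wholly inside Glp2r on the opposite strand. Gnb5 (chromosome 9 from 75213524 to 75253203) is overlapped by Gm19531 and Gm48677, also on the opposite strand. The sources do not state whether counting used strand, so reads of these partners may be mixed. Glp2r had 239 and 216 UMIs in Cre- and Tet tcKO against 1321 and 697 of Rcvrn, so it was larger relative to Rcvrn in Tet tcKO. Gm19531 and Gm48677 had at most 74 UMIs in a library. Other overlapping genes are not among the genes counted here. Of these, the protein-coding Gm50461 covers 6023 of the 6027 bases of Guca1a on the same strand. Noncoding RNA genes overlap Gucy2e, Gucy2f, Rgs9 and Slc24a1 on the opposite strand. The part of these genes in the counts was not tested.

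Promoter windows are shown for both cyclases and both exchangers, the pairs whose members differ most in ratio below, and for Guca1a as a calcium sensor that holds the same motif. RefSeq windows of 300 bases, most of them before a gene's start (build GRCm38.p6), matched 8 of the 10 genes, in 9 windows, as Slc24a2 had 2. The 6-base core bound by the photoreceptor factor CRX, TAATCC or its reverse complement GGATTA, was in the windows of 4 genes, Guca1a, Gucy2e, Gucy2f and Gnb5. It was in 7.06% of all 32851 windows of this length. A core site of the rod factor NRL, TGCTGA or TCAGCA, was in the windows of Grk1 and Rgs9 and in 19.5% of all. The 2 motifs share no letters in these windows. Windows of the 2 cyclases, of Guca1a and of the 2 exchangers (the first listed window of Slc24a2) are given 5′ to 3′ on the strand of the gene, with the CRX core in capitals.
Guca1a, chr17:47400557-47400856, minus strand: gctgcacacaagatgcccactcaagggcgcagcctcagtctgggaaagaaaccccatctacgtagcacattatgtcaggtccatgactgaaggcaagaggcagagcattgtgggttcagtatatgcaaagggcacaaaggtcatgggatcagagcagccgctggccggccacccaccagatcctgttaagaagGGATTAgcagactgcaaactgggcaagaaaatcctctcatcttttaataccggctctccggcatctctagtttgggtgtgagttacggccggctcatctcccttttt
Gucy2e, chr11:69236973-69237272, minus strand: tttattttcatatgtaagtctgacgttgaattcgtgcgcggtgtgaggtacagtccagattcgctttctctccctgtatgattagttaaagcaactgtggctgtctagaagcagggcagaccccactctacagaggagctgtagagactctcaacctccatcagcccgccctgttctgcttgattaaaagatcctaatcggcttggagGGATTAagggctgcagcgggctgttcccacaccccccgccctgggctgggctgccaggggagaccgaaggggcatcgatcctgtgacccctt
Gucy2f, chrX:142196887-142197186, minus strand: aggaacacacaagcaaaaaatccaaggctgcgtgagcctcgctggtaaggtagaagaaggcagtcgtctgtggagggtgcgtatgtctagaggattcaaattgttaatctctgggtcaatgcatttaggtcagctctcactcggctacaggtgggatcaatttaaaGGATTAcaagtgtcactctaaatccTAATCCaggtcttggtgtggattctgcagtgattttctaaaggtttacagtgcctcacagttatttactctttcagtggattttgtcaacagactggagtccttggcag
Slc24a1, chr9:64951571-64951870, minus strand: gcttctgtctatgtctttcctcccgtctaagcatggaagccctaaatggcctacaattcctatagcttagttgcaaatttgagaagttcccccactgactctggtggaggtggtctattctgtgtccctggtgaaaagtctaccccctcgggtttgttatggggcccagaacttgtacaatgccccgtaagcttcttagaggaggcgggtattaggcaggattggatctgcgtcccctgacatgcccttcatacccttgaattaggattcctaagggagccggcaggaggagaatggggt
Slc24a2, chr4:87230491-87230790, minus strand: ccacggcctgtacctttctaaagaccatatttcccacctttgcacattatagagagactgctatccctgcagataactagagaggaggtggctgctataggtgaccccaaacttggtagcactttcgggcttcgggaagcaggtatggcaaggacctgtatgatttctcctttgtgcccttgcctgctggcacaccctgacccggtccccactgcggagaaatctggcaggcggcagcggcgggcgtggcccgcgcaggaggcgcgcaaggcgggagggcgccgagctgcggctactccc
The core began 57 bases before the start in Guca1a, 42 in Gucy2e, and 84 and 59 in Gucy2f. Both cyclase windows held it and neither exchanger window did. A match is a run of letters and not a site shown to be bound.

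Over all nuclei, transcripts of 7 of the 10 genes were at least 2-fold lower in Tet tcKO and 0 were at least 2-fold higher. Of 11158 genes at 10 CPM or more in 1 library, 2.48% were at least 2-fold lower and 3.18% at least 2-fold higher. The median log2 ratio was -1.36 for the 10 genes and 0.15 for all genes tested, so a ratio near the latter is no difference relative to other genes. The split of all genes depended on scaling, with 355 higher and 277 lower by total counts and 276 and 356 by TMM (trimmed mean of M values, a scaling that sets aside the genes that differ most). CPM is a share of UMIs and not an amount per nucleus, and median depth was 1025.5 UMIs in Cre- rods and 1715 in Tet tcKO cones. Nuclei annotated as rods or cones held 65.8% of Cre- and 44.7% of Tet tcKO UMIs. A level over all nuclei therefore mixes this share with the levels within photoreceptors. For this reason levels are also given within nuclei that the authors annotated as rods or cones, pooled (5479 Cre- and 3231 Tet tcKO nuclei). There 6 genes were at least 2-fold lower, against 2.58% of 11377 genes, and 1 (Slc24a2) at least 2-fold higher, against 6.67%. The count lower was 7 by TMM, where Gnb5 joined and Slc24a2 was no longer 2-fold higher, and 5 where Guca1a dropped out, with the amacrine level subtracted or with each nucleus adding at most 1 UMI of a gene. The medians were -1.104 for the 10 genes and 0.23 for all genes. Over all genes 759 were higher and 293 lower there by total counts, and 443 and 456 by TMM.

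The pooling was needed because the names are nearly confined to 1 library each. Rods were 5214 Cre- and 6 Tet tcKO nuclei, and cones 265 Cre- and 3225 Tet tcKO nuclei. Among the 10 leading genes of each cluster, 2 of 15 rod clusters and 1 of 9 cone clusters (cluster 11, with 264 of the 265 Cre- cones) were led by markers of a different class. With rods and cones as 1 class, only cluster 32 (568 Cre- nuclei) was, by the ganglion cell marker Nefl, beside mitochondrial genes. Without cluster 32, each of the 10 log2 ratios stayed within its counting interval, and the median was -1.12. Amacrine, retinal ganglion cell (RGC) and horizontal clusters had 0 such cases, but a cluster with 0 markers among its leading genes was not counted as a case. Those with 0 markers of any class were rod clusters 16, 20, 21, 25, 34, 38, 40 and 44 and cone clusters 46 and 52. Amacrine clusters 12 and 27, bipolar cluster 43 and Müller glia cluster 37 also had 0. Clusters 21, 34, 38, 40 and 44 were led in part by mitochondrial genes, and cluster 25 by haemoglobin genes. Bipolar (4 of 9) and Müller glia (2 of 3) clusters did have leading markers of a different class. Levels there are given by name and compared between the libraries only as part of all nuclei or of class shares. They also enter the likeness of pattern below. The 4 bipolar clusters (22, 35, 39 and 41) were nearly all Tet tcKO nuclei, with the cone marker Cngb3 among their leading genes. They are not in the pooled photoreceptors. Cluster 22 stood above each Tet tcKO cone cluster for Arr3 (3553 CPM), Rgs9 (1085), Slc24a2 (714), Slc24a1 (182) and Grk1 (138).

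**Figure D1:**
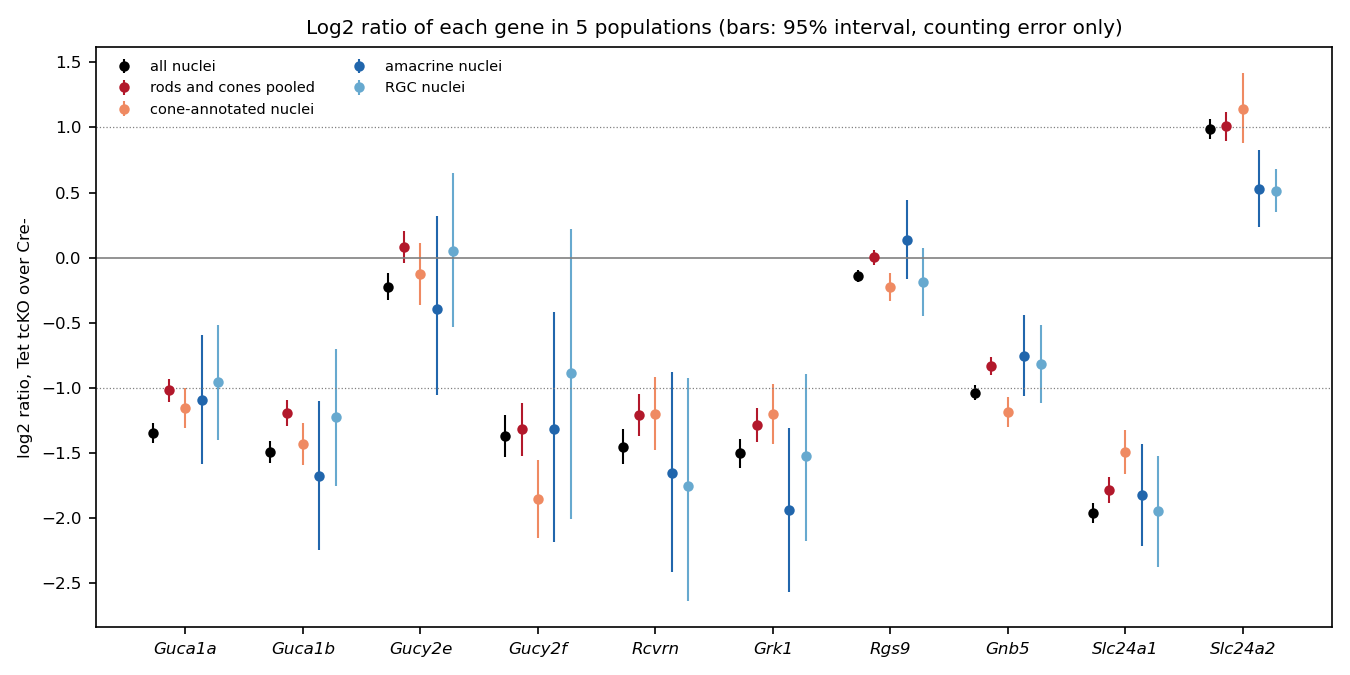
Log2 ratio of Tet tcKO over Cre- (vertical axis) for each of the 10 genes, in all nuclei, pooled rods and cones, cone-annotated, amacrine and RGC nuclei. Bars are 95% intervals for counting error, and dotted lines mark 2-fold. In pooled photoreceptors Gucy2e and Rgs9 sit at 0.08 and 0.00, Slc24a2 at 1.01, and the other 7 between -1.78 and -0.83.

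Both calcium sensors of the cyclases were lower in Tet tcKO. Over all nuclei, Guca1a stood at 325 CPM (314 to 335) in Cre- against 128 CPM (122 to 133) in Tet tcKO, for a log2 ratio of -1.35 (-1.43 to -1.27). Within pooled photoreceptors it stood at 419 and 207 CPM, 2.02-fold lower. Its neighbour Guca1b stood at 279 CPM (269.8 to 289) and 99.5 CPM (94.7 to 104) over all nuclei and at 363 and 159 CPM in photoreceptors, 2.28-fold lower. The 2 genes differed by similar amounts. Of the photoreceptor UMIs of either gene, Guca1a held 53.5% (52.3 to 54.8) in the Cre- library and 56.5% (54.6 to 58.4) in that of Tet tcKO. Across the 15 Cre- photoreceptor clusters of 50 nuclei or more, Guca1a ran from 286 to 584 CPM, and across the 8 Tet tcKO clusters from 93.2 to 267 CPM. The cluster ranges of Guca1b were 250.02 to 458 CPM and 59.1 to 201 CPM, and for neither gene did they overlap.

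The cyclases they act on parted. Gucy2e, the cyclase used by both rods and cones, stood at 143 CPM (135 to 152) in Cre- photoreceptors and 151 CPM (142 to 160.3) in those of Tet tcKO, a log2 ratio of 0.08 (-0.04 to 0.202) that lay below the median of all genes there (0.23) and included 0. Gucy2f stood at 95.6 CPM (88.7 to 103) and 38.3 CPM (34.00 to 43.1), with a log2 ratio of -1.32 (-1.52 to -1.12), 2.49-fold lower. The interval of Gucy2f lay wholly below that of Gucy2e. Over all nuclei Gucy2e had -0.22 (-0.33 to -0.12) and Gucy2f -1.37 (-1.53 to -1.205). The small ratio of Gucy2e depended on processing, with -0.11 in photoreceptors by TMM and 0.03 over all nuclei with Cre- class shares in both libraries, so no direction is given for it. Of the photoreceptor UMIs of either cyclase, a share that no scaling alters, Gucy2e held 59.9% (57.6 to 62.2) in the Cre- library and 79.8% (77.6 to 81.8) in that of Tet tcKO. In amacrine nuclei it held 56.8% (41.03 to 71.7) and 71.4% (62.1 to 79.6) and in RGCs 70.9% (57.1 to 82.4) and 82.4% (72.6 to 89.8), with overlapping intervals between the libraries. Gucy2f varied among Cre- clusters, from 49.2 CPM in cluster 40 to 158 CPM in cluster 20, of which it is a leading gene, and 138 CPM in cluster 11, and its range overlapped that of the Tet tcKO clusters (28.7 to 65.9 CPM). The Gucy2e ranges, 101 to 188 CPM and 81.8 to 182 CPM, covered nearly the same span.

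Recoverin and its target kinase were lower together. Rcvrn stood at 140.1 CPM (132 to 149) in Cre- photoreceptors and 60.6 CPM (55.1 to 66.5) in those of Tet tcKO, 2.31-fold lower. Grk1 stood at 217 CPM (207 to 228) and 89.2 CPM (82.5 to 96.3), 2.44-fold lower. Their log2 ratios, -1.21 (-1.37 to -1.05) and -1.29 (-1.42 to -1.15), had overlapping intervals. Each Cre- photoreceptor cluster lay above each Tet tcKO cluster for both genes. Rcvrn ran from 108 to 158 CPM and from 34.2 to 68.7 CPM, and Grk1 from 132 to 269.8 CPM and from 59.1 to 102 CPM. Over all nuclei Grk1 stood at 181 and 63.8 CPM, with a log2 ratio of -1.503 (-1.61 to -1.395).

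The complex that shuts off transducin was split. Rgs9 stood at 685 CPM (666 to 704) in Cre- photoreceptors and 686 CPM (667 to 705) in those of Tet tcKO, a log2 ratio of 0.00 (-0.05 to 0.06). Its partner Gnb5 stood at 638 CPM (619.8 to 656) and 358 CPM (345 to 372), 1.78-fold lower, with a log2 ratio of -0.83 (-0.900 to -0.76). The membrane anchor of the complex, Rgs9bp, stood at 176 and 176 CPM there, with a log2 ratio of -0.00 (-0.11 to 0.11). Over all nuclei Rgs9bp had -0.39 (-0.49 to -0.29), and in cone-annotated nuclei -0.66 (-0.85 to -0.47). In photoreceptors the intervals of Rgs9 and Rgs9bp included 0 but lay below the median of all genes (0.23), and that of Gnb5 lay below both. Of the photoreceptor UMIs of Rgs9 or Gnb5, Rgs9 held 51.8% (50.8 to 52.8) in the Cre- library and 65.7% (64.6 to 66.7) in that of Tet tcKO. This share differed alike outside photoreceptors, at 48.1% (41.5 to 54.7) and 63.1% (59.7 to 66.4) in amacrine nuclei and 51.6% (46.6 to 56.6) and 62.3% (57.9 to 66.5) in RGCs. By TMM the photoreceptor ratio of Rgs9 was -0.19 and that of Gnb5 -1.02, and with at most 1 UMI from a nucleus Rgs9 had -0.28, so no direction is given for Rgs9. Across clusters Rgs9 overlapped (419 to 836 CPM and 536 to 725 CPM) and Gnb5 did not (454 to 816 CPM and 227 to 419 CPM).

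The calcium exchangers differed in opposite directions, with the limit that neither stood above every other cell type in photoreceptors beyond the intervals. Slc24a1 was also lower outside photoreceptors, with log2 ratios of -1.82 in amacrine nuclei and -1.94 in RGCs. Slc24a2 was also higher there, at 0.53 and 0.51, and its ratio in photoreceptors is not read as a change in them, for the reason given below. Slc24a1, the rod exchanger, had the lowest log2 ratio of the 10 genes, both over all nuclei (-1.96 (-2.04 to -1.88)) and in photoreceptors (-1.78 (-1.88 to -1.68)). It stood at 484 CPM (469 to 500.1) in Cre- photoreceptors and 141 CPM (132 to 149.7) in those of Tet tcKO, 3.44-fold lower. Slc24a2 stood at 134 CPM (126 to 143) and 269.8 CPM (258 to 282), 2.01-fold higher. Over all nuclei Slc24a2 stood at 169 CPM (162 to 177) and 336 CPM (327 to 345), with a log2 ratio of 0.99 (0.91 to 1.06). Of the photoreceptor UMIs of either exchanger, Slc24a2 held 21.7% (20.5 to 22.9) in the Cre- library and 65.7% (63.97 to 67.4) in that of Tet tcKO. Outside photoreceptors it held 52.1% (45.2 to 58.9) and 84.7% (82.02 to 87.1) in amacrine nuclei and 73.2% (69.4 to 76.8) and 93.7% (92.1 to 95.1) in RGCs. Cluster ranges did not overlap for either gene, at 386 to 626 CPM and 99.98 to 156 CPM for Slc24a1 and 96.4 to 182 CPM and 208 to 477 CPM for Slc24a2.

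**Figure D2:**
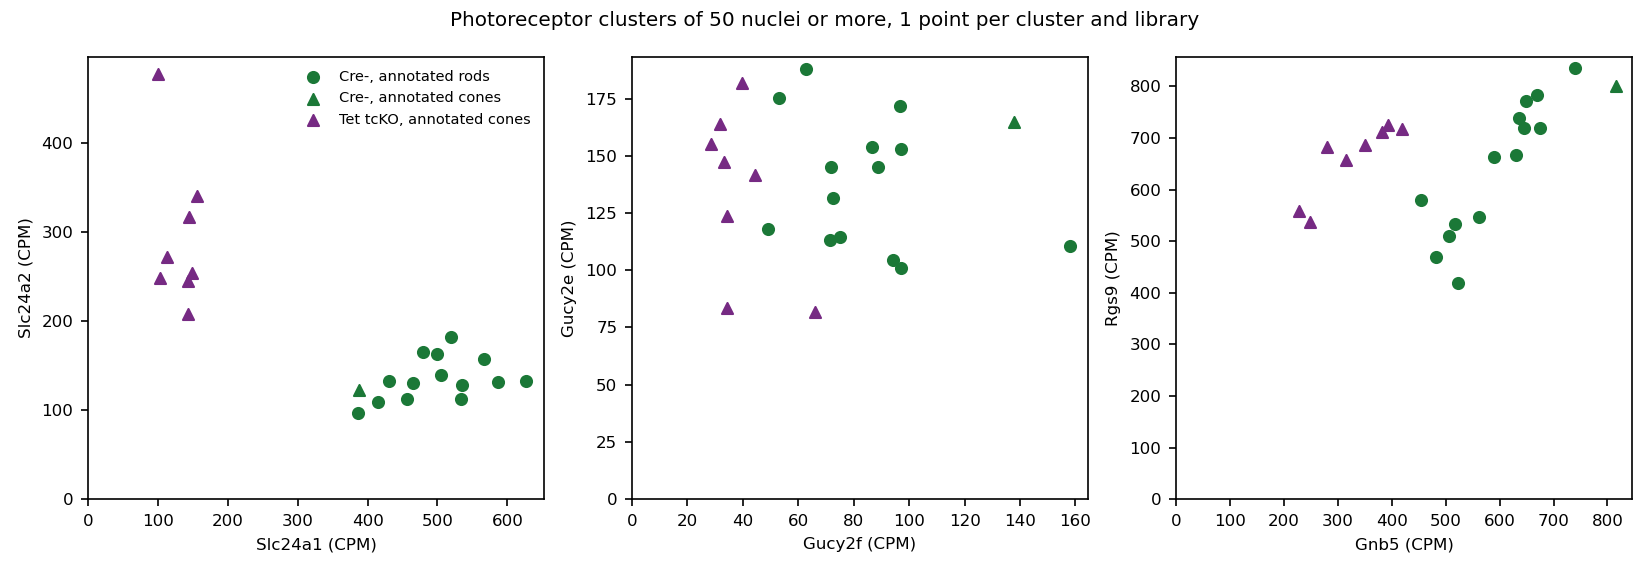
Level in CPM of 1 gene against its pair in each photoreceptor cluster of 50 nuclei or more, for Slc24a1 and Slc24a2, Gucy2f and Gucy2e, and Gnb5 and Rgs9 (green, 15 Cre- clusters; purple, 8 Tet tcKO clusters; circles, rod-annotated; triangles, cone-annotated). The libraries separate on both axes for the exchangers, but only on the Gnb5 axis for Gnb5 and Rgs9, and on neither axis completely for the cyclases.

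Of the 10 genes, 7 had cluster ranges that did not overlap between the libraries, and Gucy2e, Gucy2f and Rgs9 had ranges that did. Clusters were computed by the authors from these same counts, so this is a description of the spread and no test. The share of all genes without overlap was not computed, so the count of 7 is not read as particular to these genes. Cluster 11, which holds nearly all Cre- cones, stood inside the range of the Cre- rod clusters for 9 genes and above it for Gnb5. Cone-annotated Cre- nuclei had 815 CPM of Gnb5, 138 of Gucy2f and 388 of Slc24a1, and Cre- rods 609.7, 88.9 and 499 CPM. Slc24a2 stood at 122 CPM (102 to 145) in Cre- cones and 136 CPM (127 to 145) in Cre- rods, with overlapping intervals. Because cluster 11 was led by a rod marker, Pde6a, the next values compare nuclei as annotated and not cones with cones. Against nuclei annotated as cones in Cre-, those in Tet tcKO had 7 genes at least 2-fold lower (background 3.48%) and Slc24a2 higher (background 8.48%), with log2 ratios of -1.85 (-2.15 to -1.55) for Gucy2f, -1.49 (-1.66 to -1.32) for Slc24a1 and -1.19 (-1.298 to -1.07) for Gnb5. Where a nucleus added at most 1 UMI of a gene, the 7 genes became 2 (Gucy2f and Rcvrn) and the 1 higher became 0. Gnb5 then had -0.302, Guca1a -0.72, Guca1b -0.82, Grk1 -0.91, Slc24a1 -0.98 and Slc24a2 0.73, and Rgs9 turned from -0.22 to 0.19. Cre- cone nuclei were deep, with a median of 3736 UMIs against 1715 in Tet tcKO cones, and 91.3% of them held a Gnb5 UMI.

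Among Cre- rod clusters, Guca1a and Slc24a1 had their extremes in the same 2 clusters, in opposite directions. Cluster 16 had 584 CPM of Guca1a and 836 of Rgs9, the highest values, and 386 of Slc24a1, the lowest. Cluster 44 had 286 CPM of Guca1a, the lowest, and 626 of Slc24a1, the highest. Gnat1, which encodes rod transducin, stood at 1358 and 1045 CPM in these clusters. Their median depths were 1514 and 912 UMIs per nucleus, whose part in this was not tested. In Tet tcKO, cluster 52 had the lowest Guca1a (93.2 CPM), Guca1b (59.1 CPM), Gnb5 (227 CPM) and Slc24a1 (99.98 CPM), and the highest Slc24a2 (477 CPM) and Gucy2f (65.9 CPM). Gucy2e and Grk1 were also lowest there, at 81.8 and 59.1 CPM. Its Arr3 level, a cone arrestin, was 911 CPM, the lowest of the 8 Tet tcKO cone clusters.

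By annotated cell type, levels of 9 genes were highest in photoreceptors in Cre-, and Slc24a2 was highest outside them. In Cre- the highest type was cones or rods for each of these 9, with overlapping rod and cone intervals for Guca1a, Gucy2e, Rcvrn and Grk1. Nuclei annotated as Müller glia also overlapped rods and cones for Gucy2e and Rcvrn. Nuclei annotated as cones in Cre-, nearly all of cluster 11, stood above rods for Guca1b, Gucy2f, Rgs9 and Gnb5, which compares that cluster and not cones with rods. For Slc24a1 rods (499 CPM (482 to 517)) did not differ from Müller glia (477 CPM (391 to 577)) beyond the intervals, and bipolar nuclei (443 CPM) did not differ from Müller glia or cones. In Tet tcKO, leaving out the 6 rods, cones were highest for 8 genes. For Slc24a1, though, the intervals of cones (138 CPM (129.6 to 147)) and bipolar nuclei (123 CPM (113 to 134)) overlapped. For Gucy2f cones (38.1 CPM (33.8 to 42.8)) did not differ beyond the intervals from Müller glia (40.2 CPM (14.8 to 87.5)) or bipolar nuclei (33.1 CPM (27.9 to 38.9)). RGCs had the lowest value for these 9 genes in Cre-, but stood apart from the next type beyond the intervals for Slc24a1 only. Slc24a2 followed another order. In Cre- it was highest in horizontal cells (461 CPM (361 to 579.8)) and RGCs (339.8 CPM (308 to 374)), then 201 CPM in amacrine and 172 in bipolar nuclei. In Tet tcKO it was 784 CPM (628 to 967) in horizontal cells and 485 CPM (456 to 515) in RGCs. Horizontal cells were few (90 and 37 nuclei), and Gucy2f had 0 UMIs in those of Tet tcKO, for which 3 counts would be 27.02 CPM and the exact upper limit is 33.2 CPM.

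**Figure D3:**
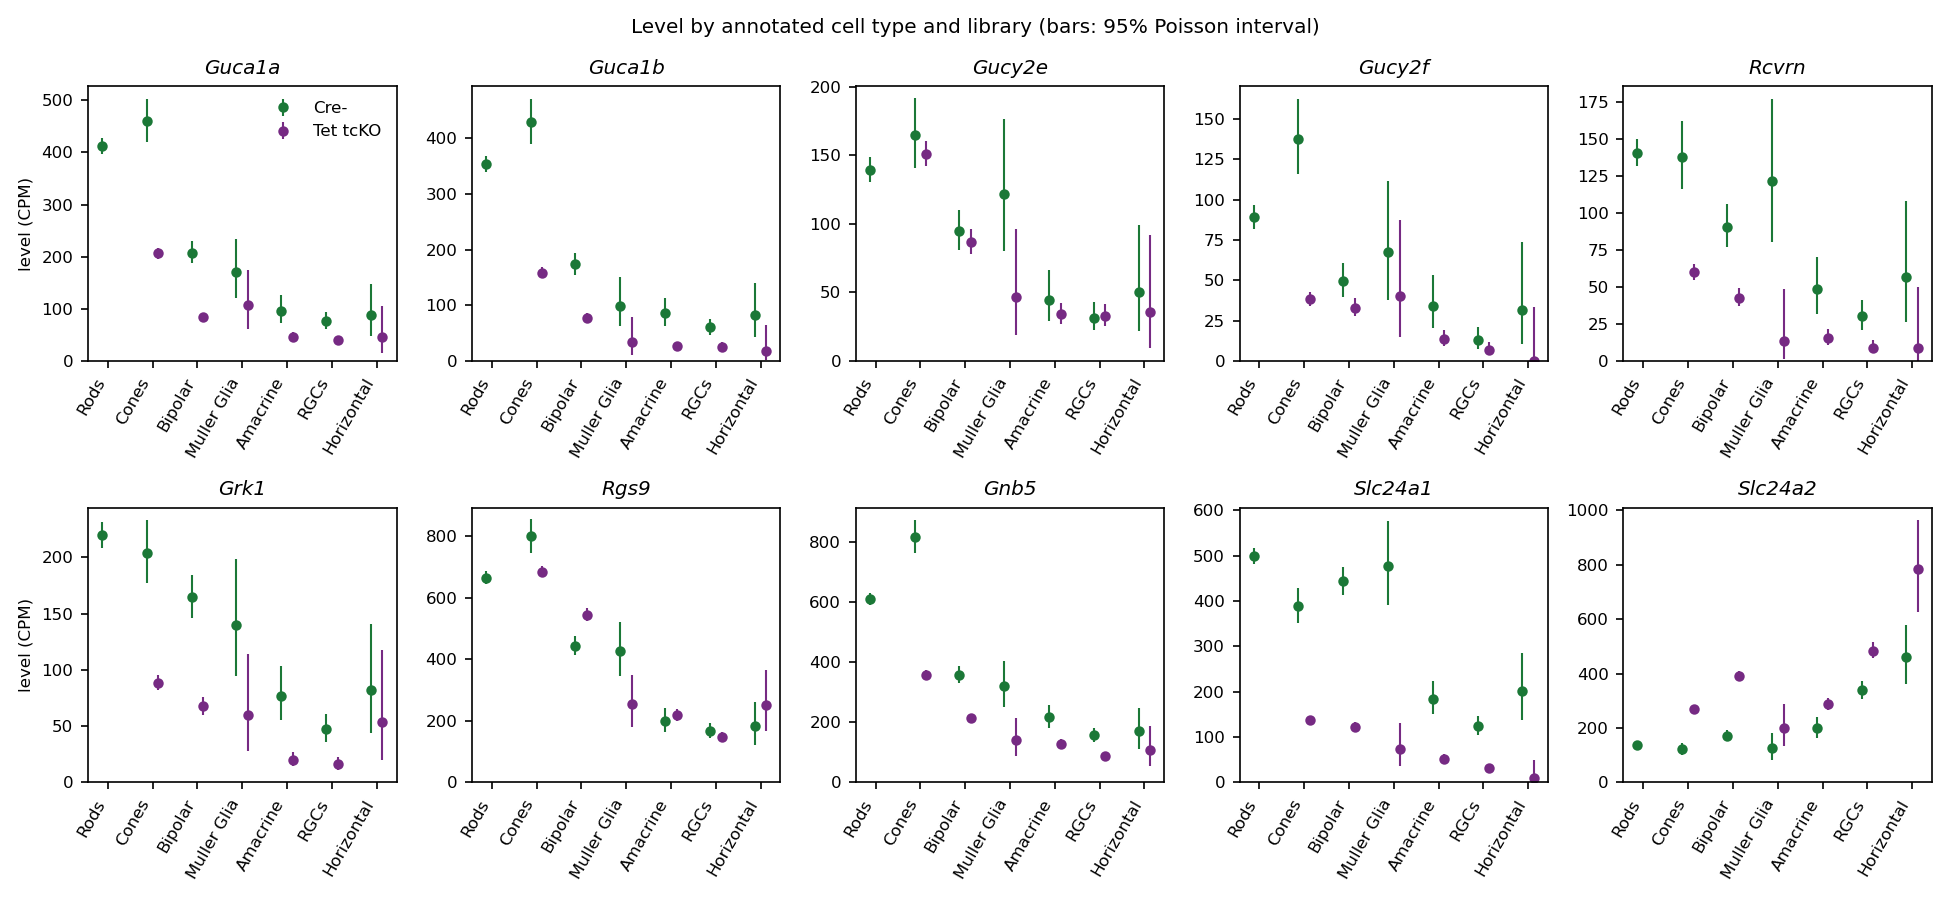
Level in CPM (vertical axis, from 0) of each of the 10 genes by annotated cell type in Cre- (green) and Tet tcKO (purple), with 95% Poisson intervals; the 6 Tet tcKO rods are not drawn. Photoreceptors are highest for 9 genes in Cre-, and Slc24a2 is highest in horizontal cells, at 461 and 784 CPM.

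RNA freed during dissociation gives UMIs in nuclei that do not make a transcript, so levels in RGC and amacrine nuclei were set beside those of photoreceptors. In Cre- RGCs, 9 of the 10 genes stood at 13.6% (Gucy2f) to 25.7% (Slc24a1) of their level in pooled photoreceptors. The 9 genes of the rod cascade used for this comparison stood at 13.5% to 27.7%, so the ranges were alike in Cre- RGCs. Many neurons use Gnb5, so its level in RGC and amacrine nuclei need not be free RNA. Slc24a2 stood at 253% (226 to 284) in RGCs of Cre- and 179.7% (167 to 194) in those of Tet tcKO, and at 149.5% (122 to 182) and 107% (97.9 to 117) in amacrine nuclei. In Tet tcKO RGCs the 9 others stood at 14.7% (Rcvrn) to 24.9% (Gnb5), and the rod cascade genes at 10.2% to 19.6%. Amacrine percentages of these 9 ran from 23.1% to 38.1% in Cre-, and in Tet tcKO from 16.9% to 36.96%. Those of the rod cascade genes ran from 19.2% to 35.7% and from 14.8% to 24.0%. In Tet tcKO some of the 9 genes thus stood above the rod cascade range in both classes.

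**Figure D4:**
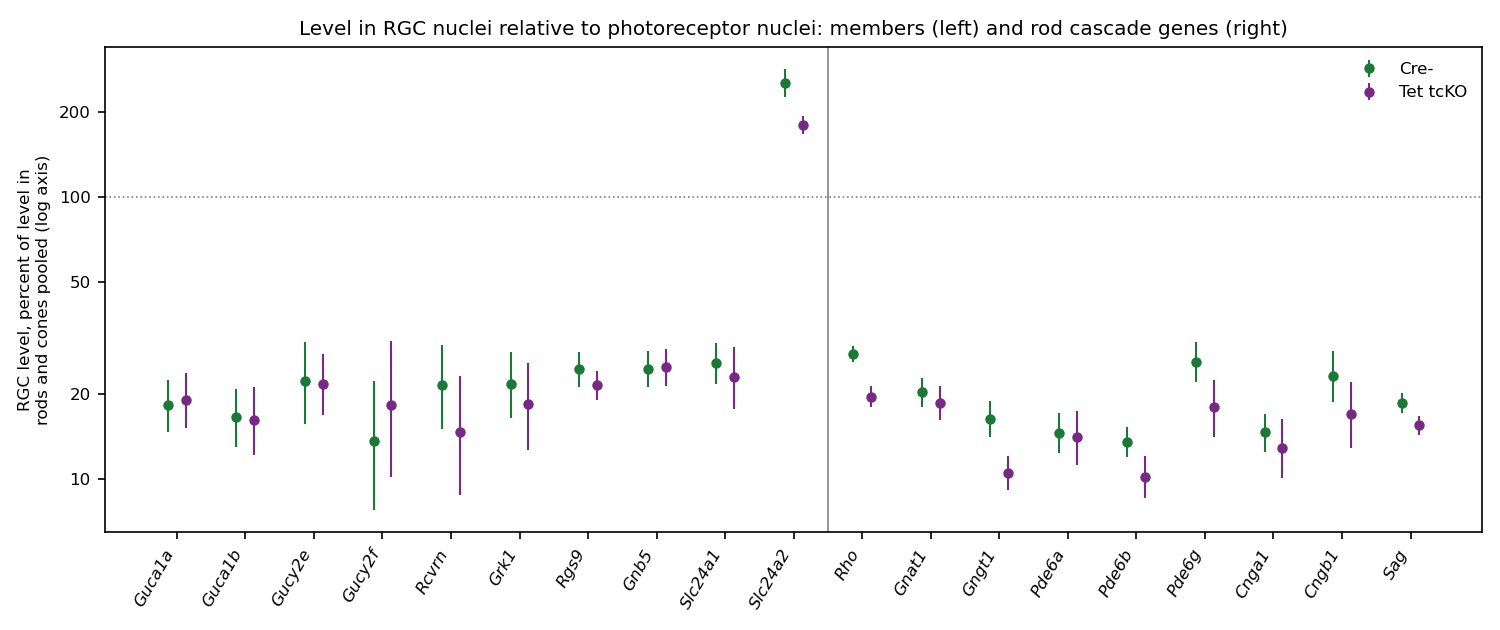
Level in RGC nuclei as a percent of the level in pooled rods and cones (log axis), for the 10 genes (left of the line) and 9 rod cascade genes (right), in Cre- (green) and Tet tcKO (purple) with 95% intervals. All but Slc24a2 lie between 10.2% and 27.7%, and Slc24a2 lies at 253% and 179.7%, above the photoreceptor level.

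In each of these other classes 8 of 10 ratios were below 0, and the share of all genes below 0 was not computed. The intervals of Gucy2e and Rgs9 included 0 in both, and that of Gucy2f did in RGCs. In amacrine nuclei (403 and 1043) 6 of the 10 genes were at least 2-fold lower (background 6.44%) and 0 higher (background 6.44%), with a median of -1.21 against -0.01 for all genes. In RGCs (567 and 704) 4 were at least 2-fold lower (background 3.2%) and 0 higher (background 3.53%), with a median of -0.92 against 0.02. Slc24a1 had -1.82 (-2.21 to -1.43) in amacrine nuclei and -1.94 (-2.37 to -1.52) in RGCs, and Gnb5 -0.75 (-1.06 to -0.44) and -0.82 (-1.11 to -0.52). Slc24a2 was higher in Tet tcKO in both, at 0.53 (0.23 to 0.83) and 0.51 (0.35 to 0.68), a smaller ratio than in photoreceptors (1.01 (0.899 to 1.12)) with intervals that did not overlap it. With the amacrine level of the same library subtracted, photoreceptor ratios were -0.99 for Guca1a, -1.07 for Guca1b, 0.25 for Gucy2e and -1.32 for Gucy2f. They were -1.02 for Rcvrn, -1.02 for Grk1, -0.06 for Rgs9, -0.87 for Gnb5 and -1.75 for Slc24a1. Many neurons use Gnb5, so amacrine nuclei are no background for it and its subtracted value is not read. Slc24a2 has no such value because its photoreceptor level lay below the amacrine level in both libraries.

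Detection per nucleus was compared at 500 UMIs per nucleus, which left out 0 nuclei. Guca1a was detected in 19.5% (18.4 to 20.6) of Cre- rods and 9.74% (8.73 to 10.8) of Tet tcKO cones, and in 5.96% and 2.397% of amacrine nuclei. Slc24a1 was detected in 23.5% (22.3 to 24.7) and 7.101% (6.24 to 8.04) of these photoreceptors, and in 8.93% and 3.07% of amacrine nuclei. Gucy2e was present in 6.48% (5.83 to 7.19) and 7.32% (6.44 to 8.27), with overlapping intervals, and Gucy2f in 4.81% (4.25 to 5.43) and 1.798% (1.37 to 2.32). Rgs9 was present in 27.2% (26.03 to 28.5) and 29.95% (28.4 to 31.6), and Gnb5 in 26.8% (25.6 to 27.98) and 16.7% (15.4 to 18.01). Amacrine nuclei should lack genes particular to photoreceptors, and their shares serve as background for these. Gnb5 and Slc24a2 are used by many neurons, so amacrine nuclei are no background for them. Shares in Cre- rods and Tet tcKO cones were above the amacrine share of the same library for 9 genes, but the intervals of Gucy2f overlapped in both libraries (2.48% (1.196 to 4.52) and 0.767% (0.332 to 1.51) of amacrine nuclei). Slc24a2 was detected in 6.69% (6.03 to 7.41) of Cre- rods against 9.93% (7.19 to 13.3) of Cre- amacrine nuclei, and in 12.3% (11.2 to 13.5) of Tet tcKO cones against 12.6% (10.6 to 14.7) of Tet tcKO amacrine nuclei. No class here plainly lacks Slc24a2, so expression in photoreceptors and free RNA cannot be told apart for it, and its ratio there is not read as a change in photoreceptors.

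**Figure D5:**
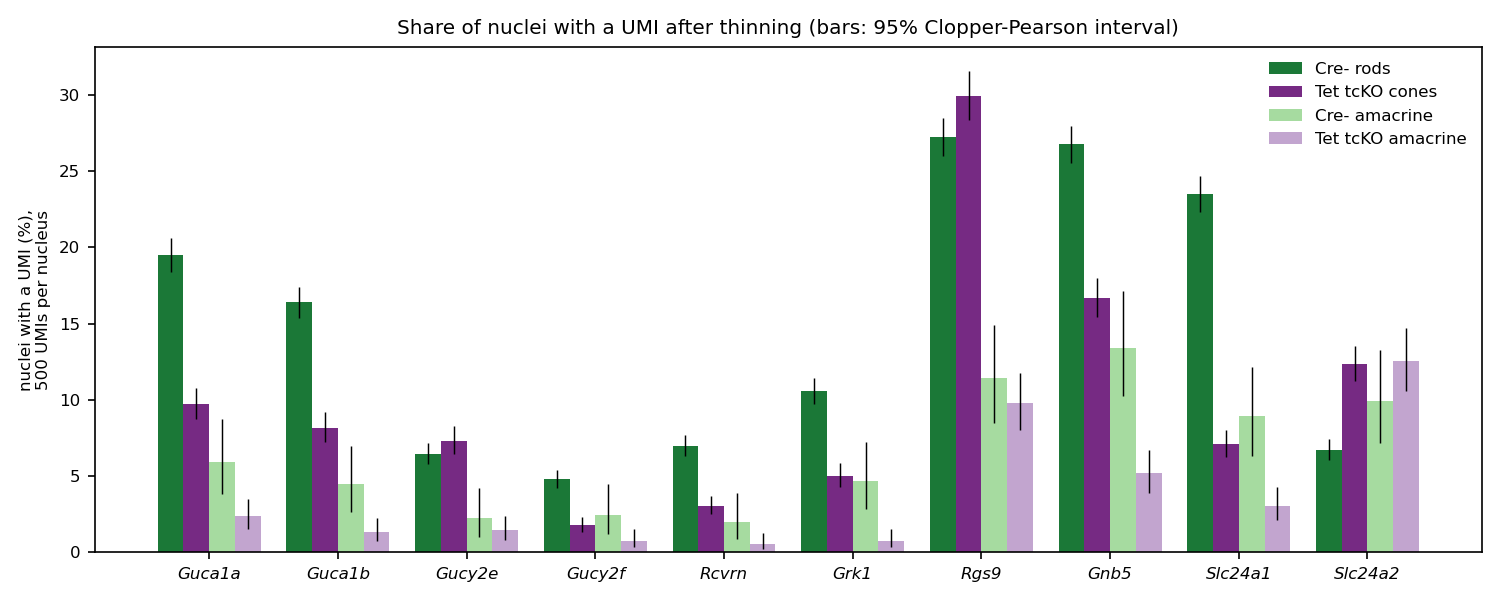
Share of nuclei with at least 1 UMI (vertical axis, percent) of each of the 10 genes after each nucleus was thinned to 500 UMIs, in Cre- rods, Tet tcKO cones and amacrine nuclei of both libraries, with 95% Clopper-Pearson intervals. Slc24a1 stands at 23.5% in Cre- rods and 7.101% in Tet tcKO cones, Rgs9 at 27.2% and 29.95%.

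Before thinning, median depths were 1025.5 UMIs in Cre- rods, 1715 in Tet tcKO cones, and 1065 and 1736 in amacrine nuclei. The unthinned shares were 40.1% and 34.7% for Guca1a, 53.6% and 74.6% for Rgs9 and 52.2% and 52.2% for Gnb5, in Cre- rods and Tet tcKO cones. At 500 UMIs, at least 1 of the 10 genes was seen in 80.4% (79.3 to 81.4) of Cre- rods and 67.5% (65.8 to 69.1) of Tet tcKO cones. At least 2 were seen in 45.1% and 26.2%. In amacrine nuclei at least 1 was seen in 48.9% and 32.3%.

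The difference over all nuclei can be divided into a part from class shares of UMIs and a part from levels within classes. For Slc24a1 the difference was -313 CPM, of which class shares made up 7.87%. Levels within classes gave -288 CPM, of which photoreceptors gave -189.6 CPM and other classes the rest. Those classes include bipolar nuclei and Müller glia, whose clusters had leading markers of a different class. That limit holds for each division here and for the ratios with Cre- class shares. For Guca1a class shares made up 22.1%, for Gnb5 21.9%, for Grk1 13.2% and for Rcvrn 15.3%. For Gucy2e the difference was -16.7 CPM, and class shares alone gave -17.5 CPM. For Rgs9 these values were -51.01 and -70.4 CPM. With Cre- class shares in both libraries, the log2 ratios of Gucy2e and Rgs9 were 0.03 and 0.03, that of Gnb5 was -0.82 and Slc24a1 had -1.82.

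The other phototransduction genes place these values. Over all nuclei, 8 of the 10 rod cascade genes were at least 2-fold lower, from -2.13 (-2.19 to -2.06) for the channel subunit Cnga1 to -0.404 (-0.45 to -0.36) for Gngt1, a transducin gamma subunit, with a median of -1.53. Of the 10 cone cascade genes 8 were at least 2-fold higher, from 3.06 (3.002 to 3.12) for Cngb3 down to -1.38 (-1.64 to -1.13) for Pde6h, a cone phosphodiesterase subunit, the 1 gene that was at least 2-fold lower. Their median was 1.38. In pooled photoreceptors the medians were -1.21 and 1.65, and the median of the 10 recovery genes, -1.104, stood with the rod cascade. Of 27 partners and paralogues of the 10 genes, 25 reached 10 CPM, 23 of these stayed within 2-fold over all nuclei, and the median was -0.04. The 2 past 2-fold were G protein beta subunits. Gnb1, the subunit of rod transducin and also a member of the rod cascade list, had -1.33 (-1.38 to -1.28) and Gnb2 1.06 (0.96 to 1.17) over all nuclei. In photoreceptors Gnb1 stood at 917 and 392 CPM and Gnb2 at 90.02 and 270.1 CPM.

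Likeness of pattern was described over 11 of the larger groups of 1 class in 1 library, as Pearson r of log2(CPM + 5) among 6694 genes. The groups include bipolar nuclei and Müller glia of both libraries, whose clusters had leading markers of a different class. The points share libraries, depth and free RNA, so r is high for many genes and is given without a test. The genes most like the mean of the 10 were Agpat3 (0.993), Klhl18 (0.991), Pde6b (0.9903), Samd11 (0.9895) and Esrrb (0.987). The nearest gene was Nr2e3 (0.985) for Guca1a, Pdzph1 (0.985) for Guca1b and Rbp3 (0.9805) for Gucy2e. It was Gm48505 (0.979) for Gucy2f, Cngb1 (0.993) for Rcvrn and Usp2 (0.987) for Grk1. It was Frmpd2 (0.991) for Rgs9, Pdzph1 (0.993) for Gnb5, Cep89 (0.973) for Slc24a1 and Scn8a (0.966) for Slc24a2.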

How the data were processed

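Nuclei from P21 retinas went through a 3′ PIPseq kit. Per the labels, pipseeker (v3.3.0) handled the reads against GRCm39. The study's methods state that CellBender reduced ambient RNA, and nuclei over 500 and under 10000 transcripts with a low mitochondrial percent were kept in Monocle3. The deposited matrices give UMI counts as whole numbers for each gene in each nucleus, and their sums equalled the deposited totals in 7357 and 6766 nuclei. The deposited cell tables also give a mitochondrial percent per nucleus, a size factor (a ratio of a total to a constant), a cluster number and a cell type. The deposited gene table gives a signal per genotype (mean over nuclei of counts per 10000) and the count of nuclei with each gene. The size factor, the mitochondrial percent and the gene table's signal were not used for any level.

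UMIs were summed over nuclei and divided by all UMIs (CPM). Intervals are exact Poisson for levels, exact conditional for log2 ratios and Clopper-Pearson for shares, at 95%. They cover counting error only. A count of 0 stood at a floor of 3 counts in a ratio. Genes reaching 10 CPM in either library entered the count of 2-fold differences. With 1 library per genotype no p-value was computed, and the study's model over single nuclei was not repeated. Doublets were not called, and an alternative left out the 5% of nuclei with the most UMIs. For shares, each nucleus was thinned to 500 UMIs. Leading genes of a cluster were the 10 with the highest fold over other nuclei, at 50 CPM or more. The genes, lists, motifs and alternatives were chosen with earlier results of these data known. Named genes are the 10 genes, the highest and lowest of each other list, and the nearest genes by pattern. Rgs9bp, Gnat1, Arr3 and the clusters named were chosen after their values were seen. The interval and ratio code was run on simulated data first. Python 3.11.15, numpy 2.4.6, scipy 1.17.1 and pandas 2.3.3 were used.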

Additional observations from a re-analysis of the deposited data

How the results depend on the processing

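Alternatives changed the scaling (TMM or median of ratios), the nuclei that entered (1000 UMIs or more, or without the 5% with the most UMIs), the counting (each gene once per nucleus, or without each gene's highest nucleus), the class shares and the background. The alternative without cluster 32 was chosen after seeing the data. Of 209 log2 ratios of single genes under an alternative, 142 lay inside the reported value's counting interval, 64 lay outside it and 3 reversed a value whose interval excluded 0. In all 11 changed sign, all of them of Gucy2e or Rgs9, and 8 of these were in pooled photoreceptors. There Gucy2e had -0.11 by TMM and -0.09 by median of ratios, and Rgs9 ran from -0.28 to -0.02 over 6 alternatives. The reversed values were those of Gucy2e (0.027) and Rgs9 (0.032) over all nuclei with Cre- class shares in both libraries, and Rgs9 in cone-annotated nuclei (0.19) where a nucleus added at most 1 UMI of a gene. The median log2 ratio of the 10 genes over all nuclei moved to -1.21 with each gene counted once and to -1.12 with Cre- class shares. In pooled photoreceptors it moved to -1.295 by TMM and -1.27 by median of ratios, and in cone-annotated nuclei to -0.77 with each gene counted once. The 7 of the 10 genes at least 2-fold lower over all nuclei became 6 without Gnb5, with each gene counted once or with Cre- class shares. In pooled photoreceptors the 6 became 7 with Gnb5 by TMM or median of ratios, and 5 without Guca1a with each gene counted once or the amacrine level subtracted, and Slc24a2 was below 2-fold in the first 3 of these and has no value in the last. Without the 5% of nuclei with the most UMIs, Slc24a2 reached 2-fold over all nuclei and lost it in cone-annotated nuclei. The count of genes at least 2-fold different moved from 632 to 1868 at 1 CPM and 262 at 50 CPM over all nuclei, and from 1052 to 2845 and 379 in pooled photoreceptors. Without thinning, at least 1 of the 10 genes was seen in 96.2% of Cre- rods, 100% of Cre- cones and 97.2% of Tet tcKO cones. The unthinned shares in Cre- and Tet tcKO were 93.2% and 92.8% for bipolar nuclei, 73.2% and 76.03% for amacrine nuclei and 80.4% and 82.5% for RGCs, which follows from depth. The cause of the other shifts was not tested. No paired analysis was possible because each genotype has 1 library.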

Other observations

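The Tet tcKO library held 6 nuclei annotated as rods, too few for a level. Of these, 4 (2 in cluster 21 and 2 in cluster 45) held 23 UMIs of Slc24a1, from 3 to 10 in a nucleus, 5 of Guca1a and 0 of Slc24a2 among totals of 1080 to 1461 UMIs. The other 2 held 0 Slc24a1 UMIs. The 10 UMIs in 1 of the 4 equalled the highest Slc24a1 count of any nucleus in either library.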
